A study of Mus musculus with 16 samples.

Results

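The clustered protocadherins are a family of cell adhesion genes on mouse chromosome 18, written Pcdha, Pcdhb and Pcdhg for the alpha, beta and gamma clusters. Members were taken by symbol from RefSeq genes placed on GRCm38.p6 (mm10), and no measured value entered the choice. RefSeq holds 58 such genes of 49993 with a position: 14 alpha, 22 beta and 22 gamma genes. They span chr18:36930285-37841873, which is 911.6 kb. A 5000 bp window around the transcription start site (TSS) was assigned to a gene when its midpoint lay within 650 bp of the start, and 25 genes had one, of 38053 distinct windows deposited. These were Pcdha1, Pcdha12, all 22 beta genes and Pcdhga3, so the other 33 genes were described through accessible regions alone. Of 127646 deposited accessible regions, 80 lay inside the span.

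ATAC-seq, which reads open chromatin through the insertion of adaptors by a transposase, was performed in mouse embryonic stem cells of the genotype FOXD3-iKO cultured in L2i. All groups carried this genotype. Cells received tamoxifen (4HT), which induces loss of FOXD3, or ethanol (EtOH) as the control, with a treatment time of 24 h. They were sorted by DNA content into 4 fractions that the labels call G1, ES, LS and G2, giving 8 groups of 2 libraries. The deposited tables hold 1 column for each group, taken here as pooled, so no value has an SD, and the labels name neither the cell line, the number of clones nor the part of Foxd3 that is removed.

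Each clustered protocadherin has its own promoter. The alpha and gamma genes each splice a variable first exon, which codes for the extracellular cadherin repeats, to constant exons shared by the whole cluster, whereas beta genes are single-exon genes. In neurons, which choose a few promoters at random, CTCF, cohesin and DNA methylation act on that choice, and the combination of proteins on the surface gives each neuron an identity used in self-avoidance. The C-type genes (Pcdhac1, Pcdhac2, Pcdhgc3, Pcdhgc4 and Pcdhgc5) are the exceptions that neurons express without such a choice. In this annotation, the ends of the alpha genes lay within 1240 bp of each other and those of the gamma genes within 1384 bp, where the shared constant exons lie. A region downstream of Pcdhgc5 therefore falls inside nearly every gamma gene at once and belongs to none alone. No DNA sequence of the cluster is shown.

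The deposited signal is a coverage value, read here as a mean over covered bases only. The smallest value in each column was taken as the worth of 1 read, and a level is a multiple of it. Depth implied by that value was 6.78 to 11.1 M reads in the 4HT columns and 8.17 to 11.2 M in the EtOH columns. On this reading a level of 1 means that the reads of an interval do not overlap, whatever their number. It is not a count of reads, and a change in reads that do not overlap leaves it unchanged. A mean level over the 8 columns counts a column without a read as 0. As a check of the cell type, the 10 windows of embryonic stem cell genes had a median of 1.867, from 2.727 for Klf2 and 2.648 for Pou5f1 down to 1.427 for Nanog and 1.25 for Esrrb. Neuronal markers had a median of 1.254 over 8 windows and fibroblast markers 1.282 over 5. The lists overlapped: Tubb3, a neuronal marker, stood at 1.674, above Nanog, Klf4, Sox2 and Esrrb.

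The alpha, beta and gamma clusters differed in where their accessible regions lay. The gene start was taken as the lower coordinate of the annotated gene, since the gene table gives no strand. The window offset of 23 of the 25 members with a window was that of plus-strand genes. The other 33 are alpha or gamma genes, whose strand was read only from the closely spaced upper ends of each cluster, given above. A region reaching to within 500 bp of the gene start was found for 20 of 22 gamma genes, 8 of 14 alpha genes and 2 of 22 beta genes. Among 17491 protein-coding genes on other chromosomes the share was 60.99%. By subgroup, all 12 gamma A genes and 6 of 7 gamma B genes had such a region, as did 4 of 5 C-type genes. The gamma genes without one were Pcdhgb7, whose nearest region was centred 810 bp after the start, and Pcdhgc5.

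Beta genes had their regions further along the gene. A region centred 1700 to 2600 bp after the start, an interval chosen after the positions were seen, was found for 11 of 22 beta genes, against 6.249% of the other protein-coding genes. These 11 genes were Pcdhb3, Pcdhb7, Pcdhb8, Pcdhb10, Pcdhb13, Pcdhb14, Pcdhb15, Pcdhb17, Pcdhb18, Pcdhb19 and Pcdhb22. Their region centres lay in a narrow range, from 1983.5 to 2370.5 bp with a median of 2163.5 bp, and each lay inside the annotated gene. The gene table used here gives no exons, so their place relative to exons is not stated. Of the 22 beta genes, 10 (45.45%) had a region in this interval and none at the start, against 2.847% of the other protein-coding genes. A further 10 beta genes had neither, among them Pcdhb21, whose region was centred 1694 bp after the start, just outside the interval. The region 2678 bp after the Pcdhga12 start lay just beyond its other end.

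**Figure D1:**
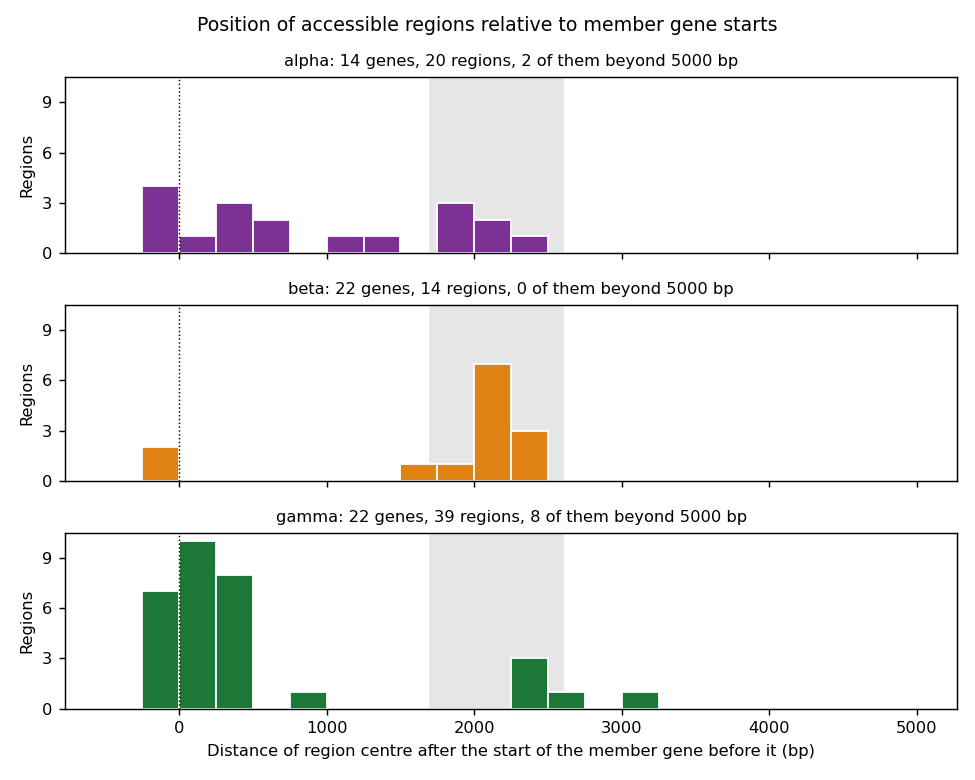
Histograms of the distance in bp from the start of the member gene before a region to the region's centre (x axis) against the number of regions per 250 bp (y axis), for the alpha, beta and gamma clusters. The dotted line is the gene start and the grey band spans 1700 to 2600 bp. Gamma regions gather at the start, beta regions in the band, and alpha regions at both.

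Alpha genes showed both positions. A region at 1700 to 2600 bp was found for Pcdha1, Pcdha3, Pcdha4, Pcdha5, Pcdha8 and Pcdhac1, that is 6 of 14, with centres from 1854.5 to 2319 bp and a median of 2053.75 bp. Pcdha1, Pcdha4 and Pcdhac1 had a region at the start as well. Pcdha2, Pcdha7 and Pcdha12 had neither. In the gamma cluster only Pcdhgb1, Pcdhga8 and Pcdhga10 had a region in this interval, and each of them also had one at the start. Over all 58 genes, 15 had a region at neither position.

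Most of these regions were weak. The 38 regions at member starts had a median level of 0.7989, under the 1-read value because columns without a read count as 0, and 5 of them had a read in all 8 columns. The 20 regions 1700 to 2600 bp after a start had a median of 0.7377, and 1 of them, in Pcdhb14, had a read in every column. Limited to regions with a read in at least 6 columns, the counts at the start were 14 gamma, 3 alpha and 1 beta gene, and those at 1700 to 2600 bp were 0, 2 and 6. The share among other protein-coding genes was then 58.48% at the start and 4.974% in the interval. Variable exons of the family resemble each other in sequence. How reads that match several of them were counted was not given in the sources used here, and their part in these counts was not tested.

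The best covered region inside a beta gene was that in Pcdhb14, at chr18:37449616-37450106. It stood at 1.61, 1.91, 1.21 and 2.04 times the 1-read value in 4HT (G1, ES, LS and G2, the order used throughout) and at 1.18, 1, 1.64 and 1 in EtOH. The 4HT and EtOH columns overlapped. At the other end, the start region of Pcdhb8 had a read in EtOH G1 alone, at the 1-read value. The start region of Pcdhb1 (chr18:37264705-37265266), the beta gene nearest the alpha cluster, had a read in 7 columns and a mean level of 1.021.

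Among the alpha, beta and gamma clusters, region density and median level were highest in gamma. The gamma cluster held 39 regions, or 21.59 per 100 kb, against 7.734 in the alpha and 5.449 in the beta cluster. Chromosome 18 as a whole had 4.815 per 100 kb, and the 500 kb before and after the cluster had 7.6 and 9.4. The median level was 0.9732 in gamma, 0.7377 in beta and 0.5914 in alpha, and 0.8674 over the 80 regions, below the 1.005 of all deposited regions. The 5 regions between the beta and gamma clusters had a higher median, 1.575. A read in every column was found for 17 of the 80 (21.25%), against 30.45% of all regions. The 500 kb before the cluster had a median of 1.499 over 38 regions and the 500 kb after it 1.196 over 47. Region widths overlapped between the clusters, with medians of 182.5 bp in alpha, 201.5 bp in beta and 220 bp in gamma. The widest stretches without a region were 75.44 kb between the beta and gamma clusters, 68.17 kb between Pcdha12 and Pcdhac1, and 56.59 kb between Pcdhb8 and Pcdhb10.

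**Figure D2:**
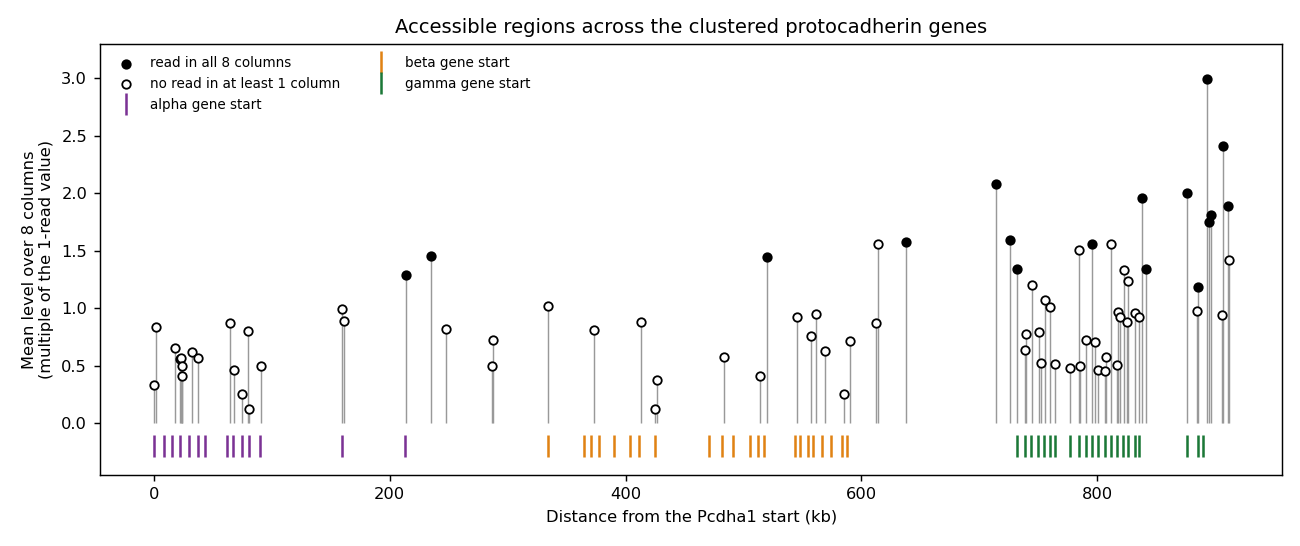
Mean level of each of the 80 accessible regions over the 8 columns (y axis, multiples of the 1-read value) against distance from the Pcdha1 start in kb (x axis), with member gene starts as ticks below. Filled points had a read in all 8 columns, and these gather at the gamma end, where the highest level was 2.997.

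The most accessible region of the cluster and the next highest lay at its gamma end, beyond the last gene start. Downstream of the Pcdhgc5 start, 7 regions in 22.33 kb had a median level of 1.81, from 0.9377 to 2.997. Of these, 5 had a read in every column. The 32 regions of the gamma cluster before that start had a median of 0.9427. The highest was at chr18:37822489-37822974, 3186 bp after the Pcdhgc5 start, inside all 22 annotated gamma genes. Its levels were 1.91, 2.34, 3.56 and 4.83 in 4HT and 4.80, 2.89, 2.15 and 1.504 in EtOH, a mean of 2.997. The treatments overlapped, with the highest 4HT value in G2 and the highest EtOH value in G1.

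The region with the next highest level, at chr18:37836105-37836680, also lay inside all 22 gamma genes and had a mean of 2.412. It stood at 1.96, 1.69, 2.72 and 1 in 4HT and at 3.54, 2.02, 2.59 and 3.78 in EtOH. These multiples were lower in 4HT in G1, ES and G2 and higher in LS, and the treatments overlapped. Another, at chr18:37643938-37644537 between the beta and gamma clusters, overlapped the start of Taf7, which its TSS window places at the upper end of the annotated gene. Taf7 encodes a subunit of the general transcription factor TFIID. The region had a mean of 2.078, with a range of 1.41 to 3.14 in 4HT and 1.41 to 2.62 in EtOH. A region at chr18:37768078-37768438, 2678 bp after the start of Pcdhga12, followed Pcdhgc3 in level at 1.959, from 1 to 2.32 in 4HT and from 1.82 to 3.24 in EtOH. A deposited TSS window assigned to no member (chr18:37765893-37770892, mean 1.429) is centred inside this region, so it may lie at another start.

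**Figure D3:**
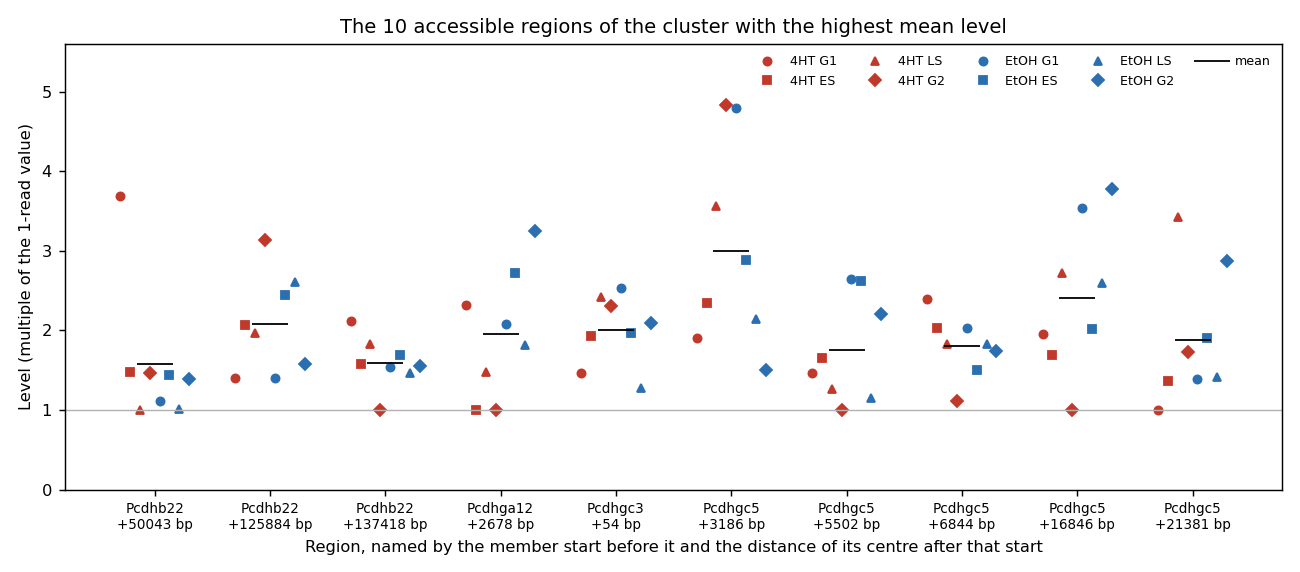
Levels (y axis, multiples of the 1-read value) in the 8 pooled columns for the 10 regions with the highest mean level (x axis), each named by the member start before it. Bars are means over columns and carry no error. The 4HT and EtOH points overlap in all 10 regions.

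The start regions of the C-type genes were 253 to 1162 bp wide and had a read in 6 to 8 columns, against a median of 6 columns over the 38 start regions. Pcdhgc3 had the most accessible start among the 30 genes with a region there. That region, chr18:37806013-37806914, had a mean level of 2.0, and only 3 regions of the cluster were higher. Its levels were 1.47, 1.93, 2.42 and 2.31 in 4HT and 2.53, 1.97, 1.28 and 2.09 in EtOH. The start region of Pcdhac2 (chr18:37143499-37144660) was 1162 bp wide and had a read in all 8 columns, with a mean of 1.293. Pcdhgc4 had a pair of regions at its start. The one with a read in all 8 columns had a mean of 1.186, with 6 columns at the 1-read value. The Pcdhac1 region (chr18:37089730-37090349) had a read in 6 columns and a mean of 0.9967. No region lay at the Pcdhgc5 start.

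Start regions of the gamma A and gamma B genes, whose variable exons alternate along the chromosome, varied in level among neighbours. After Pcdhgc3 the highest were those of Pcdhga8 (chr18:37725592-37726127, mean 1.561), Pcdhgb6 (chr18:37741954-37742245, mean 1.557) and Pcdhga7 (chr18:37714663-37715059, mean 1.504). Pcdhga8 stood at 2.04, 1, 1.64 and 1 in 4HT and at 1, 2.28, 1.73 and 1.80 in EtOH. Pcdhgb6 had no read in 4HT ES, stood at 1.88, 1 and 1.73 in the other 4HT columns, and ran from 1.38 to 3.02 in EtOH. Pcdhga7 had no read in EtOH ES, with levels from 1 to 2.85 in 4HT and from 1.004 to 1.45 in the other EtOH columns. None of these separated the treatments. The lowest were 1 of the pair at Pcdhga9 (0.4525) and those of Pcdhgb5 (0.462) and Pcdhga6 (0.4754), each with a read in 3 columns. Pcdhga7 and Pcdhga9 each had another start region, at 0.5 and 0.5795, with a read in 4 columns. Pcdhgb8, annotated as a transcribed pseudogene, had a start region with a read in 6 columns and a mean of 0.9622.

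Alpha start regions were weaker. Their median level was 0.5617 over 10 regions, against 0.9407 over 26 in gamma, and the lowest were 1 of the pair at Pcdha11 (0.125, a read in 1 column) and that of Pcdha10 (0.25, 2 columns). The other Pcdha11 start region stood at 0.803 with a read in 6 columns. The highest alpha level was not at a start. A region at chr18:37165446-37165818, inside all 14 annotated alpha genes and before their shared end, had a mean of 1.451. It stood at 1, 1, 2.85 and 1.38 in 4HT and at 1.13, 1.94, 1.31 and 1 in EtOH, with overlapping treatments.

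At the scale of TSS windows the members with a window were weakly accessible, and 22 of these 25 were beta genes. The 25 member windows had a median level of 1.106, from 0.9265 to 1.26, against 1.341 for 14275 windows of protein-coding genes on other chromosomes. Of those windows, 11.5% lay below the member median and 39.09% below the highest member. By cluster, the member median was 1.192 over 2 alpha windows and 1.105 over 22 beta windows, and the 1 gamma window stood at 1.26. Windows inside the alpha and gamma clusters that were assigned to no member stood at 1.103 in alpha and at 1.242 and 1.429 in gamma. Of the 200 values of 25 windows in 8 columns, 55 (27.5%) stood at exactly the 1-read value and 1 had no read. Among the members, 3 pairs of windows overlap (Pcdhb15 with Pcdhb16, Pcdhb17 with Pcdhb18, Pcdhb21 with Pcdhb22) and share reads, and the median over 22 windows without overlap was 1.105. A window ends before most beta genes do, and the regions after 1700 bp in Pcdhb3, Pcdhb10, Pcdhb14 and Pcdhb18 ran past its end.

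Pcdhga3, the one gamma gene with a window (chr18:37671686-37676685), stood at 1.45, 1.28, 1.01 and 1 in 4HT and at 1.52, 1.15, 1.18 and 1.49 in EtOH. In both treatments the G1 column was the highest of this gene. Pcdha1, the first alpha gene, had levels of 1, 1.502, 1.28 and 1.32 in 4HT and 1.28, 1.15, 1.07 and 1.39 in EtOH, a mean of 1.248. Pcdha12 had a mean of 1.136. Among beta genes Pcdhb14 (1.234), Pcdhb4 (1.209) and Pcdhb16 (1.188) had the highest means, and Pcdhb9 (0.9265), Pcdhb2 (1.041) and Pcdhb10 (1.064) the lowest. Pcdhb9 had no read in 4HT ES, stood at 1.29 in 4HT G1 and 1.12 in EtOH G1, and at the 1-read value in the other 5 columns. The columns of any gene in this order overlapped those of its neighbours.

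**Figure D4:**
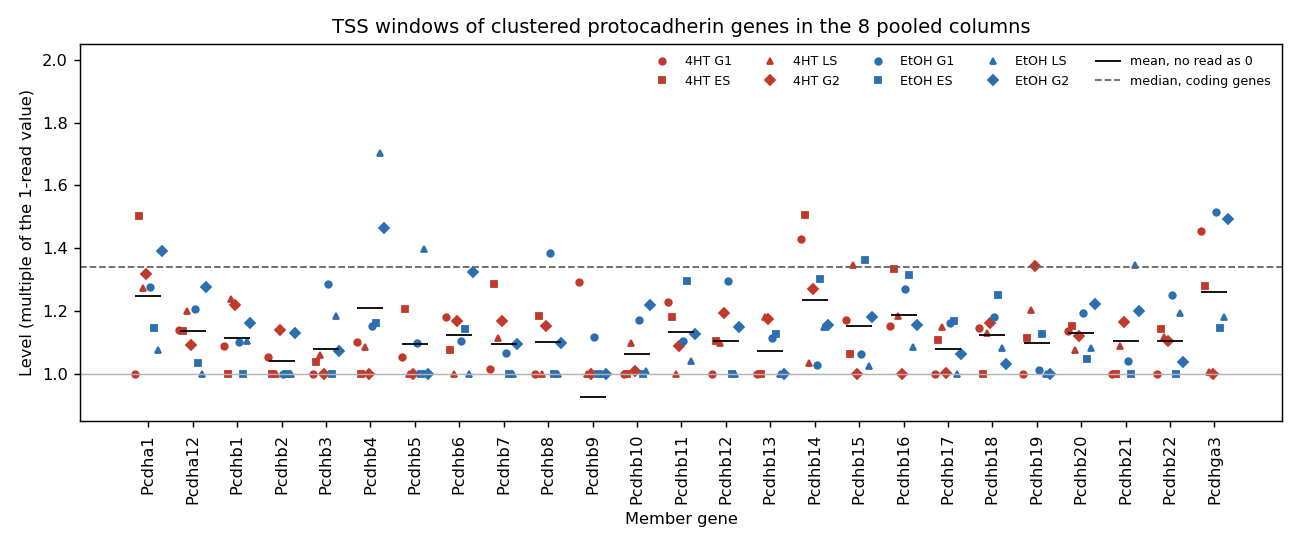
Level of each member TSS window (y axis, multiples of the 1-read value) in the 8 pooled columns, by gene in chromosome order (x axis), with 4HT in red and EtOH in blue. Short bars are means with no-read columns as 0, and the dashed line at 1.341 is the median of protein-coding genes on other chromosomes, above all 25 means.

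Other genes beside and inside the cluster were more accessible. The 24 distinct windows of other protein-coding genes within the span or 500 kb of it had a median level of 1.493, from 1.169 for Pcdh12 to 2.031 for Dele1, a mitochondrial stress gene, and those of 24 of the 26 genes lay above the highest member. Inside the span, Taf7 stood at 1.556 and Slc25a2, a mitochondrial ornithine carrier, at 1.29. The protocadherins outside the cluster, which encode related cadherins from separate loci, had a median of 1.169 over 9 windows, from 1.041 for Pcdh11x to 1.456 for Pcdh17. Genes known to regulate the cluster, a list of CTCF, cohesin, DNA methylation and silencing factors, had a median of 1.471 over 18 windows. Trim28, a corepressor of zinc finger proteins, was the highest at 3.203, then Zfp143 at 2.756, and Stag2 (1.184) and Dnmt1 (1.244) were the lowest.

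The comparison of 4HT with EtOH asks whether accessibility changes after FOXD3 depletion. No member window and no region of the cluster that entered the test passed it. Only intervals with a read in every column entered, which held for 17 of the 80 regions, so the others were not tested. The test was a limma model of log2(signal + 0.1) with terms for treatment and fraction over the 8 columns, with Benjamini-Hochberg adjustment at 0.05. The 4 fractions stood in for replicates. No member window reached the minimum mean level of 1.3 that was set for testing, where 0.0131% of 15323 windows were called. The values here therefore come from a fit with no minimum level on windows with a read in every column. Of the 24 member windows that entered it, limma called 0 (0% of 35559 windows), and the smallest adjusted p was 0.9562. At an unadjusted p under 0.05 there was 1, against 4.78% of all windows.

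On the log2 scale, the 24 windows had a median difference (4HT minus EtOH) of -0.01, with 8 above 0 and 16 below, and all windows one of 0.00075. As deposited, without centring, these medians were 0.0207 and 0.0293. By fraction, the member medians were -0.01 in G1, -0.01 in ES, -0.01 in LS and 0.02 in G2. No window had the same sign in all 4 fractions (12.6% of all windows did), and in none were the 4HT and EtOH columns apart on the centred signal (2.58%). As multiples of the 1-read value they were apart in 1 window, Pcdhb4 (1.83% of all windows). The share of member windows above the 1-read value was 70% on average in 4HT and 74% in EtOH, and of protein-coding windows 88.36% and 89.31%. In single columns the member share ran from 56% in EtOH ES to 96% in EtOH G1, where that of protein-coding windows was 86.96% and 90.27%.

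The lowest difference was that of Pcdhb4 (chr18:37304806-37309805). Its levels were 1.10, 1, 1.09 and 1 in 4HT and 1.15, 1.16, 1.70 and 1.46 in EtOH. All 4HT multiples lay below all EtOH multiples, and 2 of the 4HT columns stood at the 1-read value, the floor of the measurement. The log2 difference was -0.21 (SE 0.07, limma p 0.00603, adjusted p 0.9562), and 0.00, -0.14, -0.45 and -0.25 in the single fractions. It was -0.13 without the LS fraction. Next came Pcdhga3 at -0.08 (-0.025 without G2) and Pcdhb3 at -0.08 (-0.044 without G1).

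The highest difference was that of Pcdhb14, the gene with the covered region described above. Its window stood at 1.43, 1.51, 1.03 and 1.27 in 4HT and at 1.03, 1.302, 1.15 and 1.16 in EtOH. The log2 difference was 0.10 (SE 0.07, limma adjusted p 0.9562), with LS below 0 and the other 3 fractions above. Without the G1 fraction it was 0.026. Its region, whose reads partly fall in the same window, had a difference of 0.32 (SE 0.20, limma adjusted p 0.9646), also with LS below 0. The region's value was 0.18 without G2 and 0.55 without LS. Pcdhb19 stood at 0.09 (0.03 without G2) and Pcdhb7 at 0.07 (0.039 without ES).

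**Figure D5:**
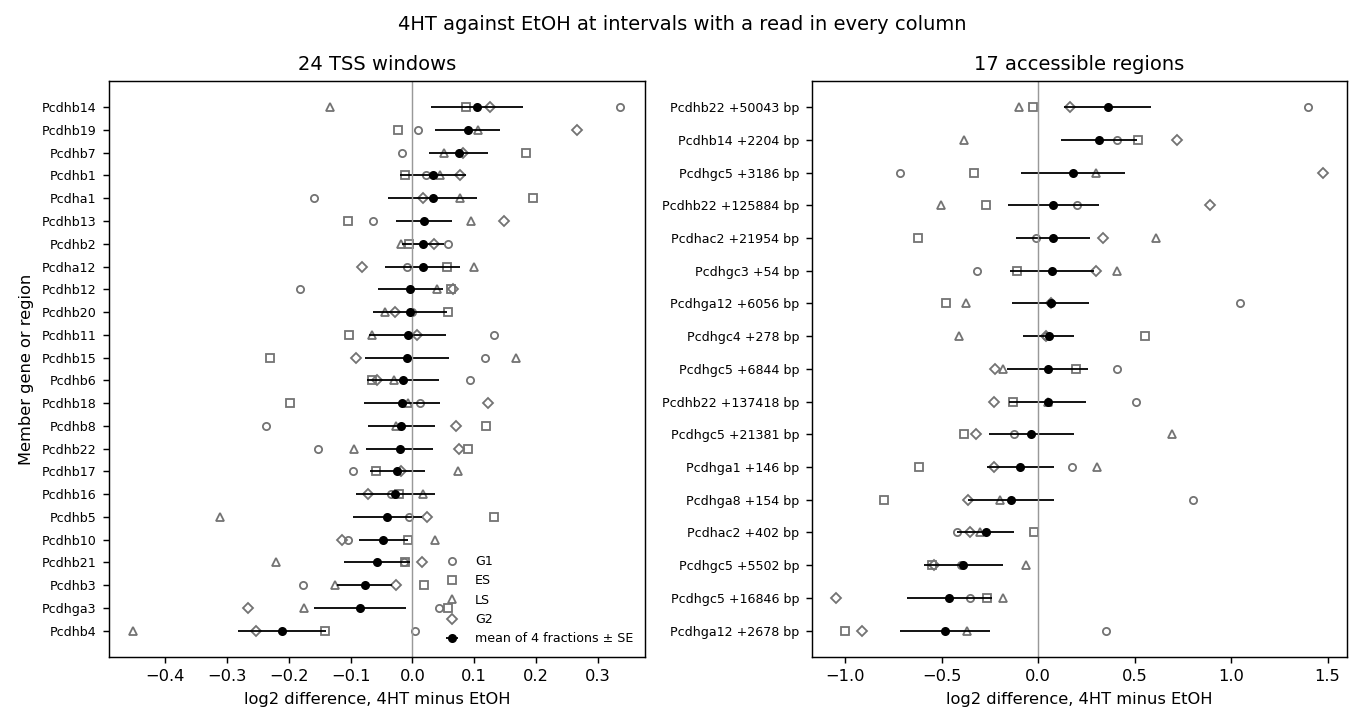
log2 difference of 4HT minus EtOH (x axis) for 24 member TSS windows and 17 accessible regions with a read in every column (y axis, sorted). Filled points are the means of the 4 fractions with the model's SE and open symbols the single fractions, and no interval passed the test.

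Among the accessible regions of the cluster, 17 had a read in every column. In limma none was called (0% of 38863 regions), and 1 had an unadjusted p under 0.05 (4.61% of regions). Of these, 4 reached the minimum mean level of 2 set for regions, and again 0 were called (0% of 11010) and 1 had an unadjusted p under 0.05. That 1 was the region at chr18:37836105-37836680, whose levels are given above. On the centred signal it was lower in 4HT in every fraction. Its log2 difference was -0.46 (SE 0.22, limma p 0.0487, adjusted p 0.9646), and -0.35, -0.26, -0.18 and -1.05 in the single fractions. Without the G2 fraction it was -0.27.

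Regions with the same sign in all 4 fractions numbered 3 of 17 (12.5% of all regions), and all 3 were lower in 4HT. Besides the one above, they were a region 5502 bp after the Pcdhgc5 start (chr18:37824951-37825145), with a log2 difference of -0.39, and the start region of Pcdhac2, with -0.27. In none of these 17 regions were the 4HT and EtOH columns apart, on the centred signal (2.65%) or as multiples (1.95%). Regions with a column lacking a read were left out of that count. Among those, the region 810 bp after the Pcdhgb7 start stood at 1.795, 3.18, 1.64 and 1.03 in 4HT, above EtOH (1 or no read). The region 2284 bp after the Pcdhb18 start stood at 1.57, 1.65, 1.34 and 1.04 in EtOH, above 4HT (1 or no read). How many such regions the whole data hold was not counted. Of the 17, the lowest difference was that of the region after Pcdhga12, at -0.48 with G1 at 0.35, and at -0.76 without G1 and -0.31 without ES. The most accessible region, 3186 bp after the Pcdhgc5 start, had a difference of 0.18 that ranged from -0.72 in G1 to 1.48 in G2, and it was -0.25 without the G2 fraction. The median over the 17 regions was 0.05, with 10 above 0, against 0.002 for all regions.

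Whether a region had a read at all gave a like picture. On average 68.12% of the cluster's regions had a read in a 4HT column and 70.62% in an EtOH column, against 74.24% and 75.56% of all regions. The lowest share in the cluster was 62.5% in EtOH LS and the highest 76.25% in EtOH G1, against 72.67% and 77.52% of all regions. A read in 4HT columns alone was found for 1 region (1.25%, against 2.037% of all), and in EtOH columns alone for 4 (5%, against 2.19%).

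Fractions were compared with G1 over both treatments, which served as the repeats. At the minimum level no member window entered, where 0.0196%, 0.0718% and 0.0457% of windows were called in ES, LS and G2. With no minimum level, the model called none of the 24 member windows in ES (0.00281% of windows called), in LS (0.0112%) or in G2 (0.0169%). At an unadjusted p under 0.05 there were 0, 1 and 1, against 6%, 6.31% and 5.31% of windows. That window was Pcdhga3 both times. Its log2 difference from G1 was -0.20 in ES, -0.29 in LS (SE 0.10, limma p 0.0104, adjusted p 0.7322) and -0.21 in G2 (limma p 0.0494, adjusted p 0.9394). Its 3 contrasts share the G1 columns, where its levels were 1.45 in 4HT and 1.52 in EtOH, while EtOH G2 stood at 1.49.

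The other beta and alpha windows differed less from G1. After Pcdhga3, the lowest values were those of Pcdhb3 (-0.08) and Pcdhb1 (-0.08) in ES, Pcdhb8 (-0.14) and Pcdhb11 (-0.13) in LS, and Pcdhb16 (-0.12) and Pcdhb3 (-0.08) in G2. The highest were Pcdha1 (0.11), Pcdhb14 (0.09) and Pcdhb19 (0.08) in ES, Pcdhb4 (0.15), Pcdhb21 (0.13) and Pcdhb5 (0.07) in LS, and Pcdha1 (0.12), Pcdhb19 (0.10) and Pcdhb21 (0.10) in G2. Member medians were -0.03, -0.03 and -0.02 in ES, LS and G2. As deposited they were -0.11, -0.13 and -0.16, where the medians of all windows were -0.07, -0.09 and -0.12.

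None of the 17 regions was called by limma in ES (0% of regions called), LS (0%) or G2 (0.00515%), nor was any of the 4 at the minimum level (0%, 0% and 0.0182%). Over the 17, at an unadjusted p under 0.05 there were 0, 1 and 0, against 5.39%, 5.8% and 5.07% of regions. The 1 in LS was a region at chr18:37568295-37568497 between the beta and gamma clusters, with a log2 difference of -0.80 (SE 0.32, limma p 0.0188, adjusted p 0.8483). Its level was 3.69 in 4HT G1 and 1.12 in EtOH G1, and from 1 to 1.48 in the other 6 columns. The region medians were -0.04 in ES, -0.22 in LS and -0.20 in G2, with 10, 11 and 14 of 17 below 0, and these contrasts share the G1 columns. Over all regions the medians were -0.0026, -0.0052 and -0.0043. The lowest G2 value was that of the region 6844 bp after the Pcdhgc5 start, at -0.60. The highest G2 value was 0.45, in the region 21381 bp after that start.

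Genes that regulate the cluster did not pass the test for treatment either. Of the 18 regulator windows, 16 reached the minimum level and 0 were called, where 0.0131% of all 15323 windows were called. That share applies to the lists below as well. Of the 16 windows, 9 lay above 0, with a median log2 difference of 0.01. Ctcf, which binds the promoters of the cluster, stood at -0.15 and Smchd1, a silencing factor of the cluster, at -0.10. Of the other genes near the cluster, 23 genes had a tested window and 0 were called, with 13 genes above 0 and a median of 0.02. In this count Apbb3 and Slc35a4 share a window, as do Hars and Hars2. The stem cell markers had a median of -0.02 over 9 windows with 4 above 0, and 0 were called. Of the neuronal and the fibroblast markers, 2 windows each were tested and 0 were called.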

How the data were processed

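The authors deposited 2 tables of coverage signal, one of accessible regions and one of 5000 bp TSS windows, each with 8 columns for the 8 groups. Per the labels, 16 ATAC-seq libraries were made. Per the submitters' processing notes, mm10 was used, and featureCounts and DESeq2 were among the tools. Aligner, region caller, handling of multiply matching reads and replicate pooling: not given in the sources used here. Intervals without a read have no value.

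Duplicate windows (34) were dropped. The window midpoint usually lay 150 bp from the start, and 23 of the 25 member windows had that offset. Signal was transformed as log2(signal + 0.1), which understates differences of low intervals, and centred by cyclic loess (limma 3.58.1, R 4.3.3). An additive model of treatment and fraction, with 3 residual degrees of freedom and robust moderation along an intensity trend, was fitted to each whole table. Benjamini-Hochberg adjustment covered all intervals tested. Intervals entered if all columns held a read and the mean level was at least 1.3 (windows) or 2 (regions). Without that minimum 24 member windows and 17 regions entered, and those that lost all reads in a column did not. P-values measure spread among pooled columns, not among cultures, and treatment within 1 fraction could not be tested.

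Named genes were the 3 highest and 3 lowest of each cluster by level and of each contrast by difference, the C-type genes and the 5 regions of highest level; other regions and genes were named after their values were seen. Members, gene lists and tests were chosen with earlier results of these data known. The pipeline was tested on simulated data built from intervals at or above the minimum levels, which no member window reached. The fit with no minimum level was not simulated. Alternatives were other pseudocounts (0.02 and 0.5), no centring, equal column medians, other minimum levels, windows without overlap, and each fraction left out. Other position limits were chosen after seeing the data.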

Additional observations from a re-analysis of the deposited data

How the results depend on the processing

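No paired analysis was possible because the columns carry no replicate numbers, and a replicate could not be left out, so each fraction was left out in its place. The counts of called windows and regions were 0 in all settings run. Member windows entered only with no minimum level and no region entered at the higher minimum, so those zeros say nothing. The member windows' median treatment difference was 0.0207 as deposited with no centring, against -0.0123, and ran from -0.0190 to -0.00314 without each fraction. The median level of the windows ran from 1.097 to 1.123 without each fraction. The difference of the region 3186 bp after the Pcdhgc5 start was -0.25 without the G2 fraction, against 0.18. For position, an interval of 2000 to 2400 bp held a region for 3 alpha genes in place of 6. With regions read in at least 6 columns, alpha genes numbered 3 at the start and 2 in the interval, beta genes 1 and 6, and gamma genes 0 in the interval. Limits of 250 or 1000 bp for the start, and an interval of 1500 to 3000 bp, kept each count within 1.5 times. The cause of these shifts was not tested. At levels near the 1-read value a loss cannot be seen, since the signal has no lower value and does not count reads that do not overlap.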
